A study of Mus musculus with 11 samples.

Results

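The urea cycle and ammonia handling genes described here are 10 genes: Nags, Cps1, Otc, Ass1, Asl, Arg1, Slc25a15, Slc25a13, Gls2 and Glud1. They were taken by symbol from a deposited table of 31280 genes, and all 10 were found. Liver RNA was sequenced from wild-type C57BL/6 mice in 2 groups. The 6 limonin mice were gavaged for 4 weeks with limonin, a triterpenoid that makes citrus seeds bitter, at 100 mg/kg, and the 5 MCD mice received water. Both groups ate the MCD diet for 8 weeks; this diet lacks methionine and choline and is used as a mouse model of steatohepatitis, fatty liver with inflammation. Mice on normal chow were not analysed here, so limonin and water are compared under the MCD diet alone.

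The urea cycle turns ammonia, which is toxic to the brain, into urea, and in mammals the liver is the only organ with the full pathway at high levels. It starts in the mitochondria of hepatocytes, where carbamoyl phosphate is made from ammonia and joined to ornithine, and ends in the cytosol, where arginine is split into urea and ornithine. Carriers in the inner mitochondrial membrane pass ornithine, citrulline and aspartate between the compartments. Glutaminase and glutamate dehydrogenase release ammonia from glutamine and glutamate. Most of these genes are stronger in periportal hepatocytes, which meet the incoming blood first, while the last hepatocytes along the flow capture leftover ammonia as glutamine.

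Levels are in FPKM (fragments scaled to transcript length and library depth), a level per length that can be compared between genes. All 10 genes lay above the filter of 1 FPKM in every library, and the lowest value was 8.14 FPKM. Of the 10 genes, 6 were higher with limonin, 0 were lower and 4 did not pass the test at an adjusted p under 0.05 (limma on log2(FPKM + 1), two-sided, Benjamini-Hochberg over all 10489 genes tested). At an unadjusted p under 0.05 the counts were the same, 6 higher and 0 lower, and the q-values in the authors' deposited table gave 7 higher and 0 lower. The authors' own mark of significance was set for fewer of the 10: Cps1, Otc, Arg1 and Gls2. It was not set for Slc25a13, Glud1 or Slc25a15, although their deposited q-values were 0.000988, 5.41e-05 and 0.0171. Their deposited ratios of limonin to MCD were 1.49, 1.49 and 1.26, below the 1.57 to 2.18 of the marked genes. Over all genes tested, 7.24% were called higher and 18.7% lower, 25.9% in all. The median log2 fold change, limonin minus MCD, was 0.54 over the 10 genes and -0.07 over all genes tested. The 6 genes called higher were Cps1, Otc, Arg1, Slc25a13, Gls2 and Glud1. In Cps1, Arg1 and Slc25a13 every limonin library lay above every MCD library, which held for 2.97% of all genes tested. In 0 of the 10 did every limonin library lie below every MCD library, which held for 8.33% of all genes tested.

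The count depended on the filter, on the libraries used, on the scaling and on a block for replicate number. It was 5 without MCD 1, 4 with replicate number as a block and 7 without limonin 5 and 6 together. With no filter on low genes it was 3 (Cps1, Otc and Arg1), and without MCD 2 it was also 3 (Cps1, Otc and Arg1). When each library was centred on the mean log2 level of 18 hepatocyte markers, 2 genes were higher (Cps1 and Arg1) and Asl was called lower. That mean was 10.41 in limonin livers and 10.14 in MCD livers, a difference of 0.27, and the centring moved the median log2 fold change of all genes tested to -0.34. Scaling by median ratios moved it to 0.05, and there 7 of the 10 genes were called higher. In RNA from whole tissue, fewer cells of a type and less RNA per cell cannot be told apart.

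**Figure D1:**
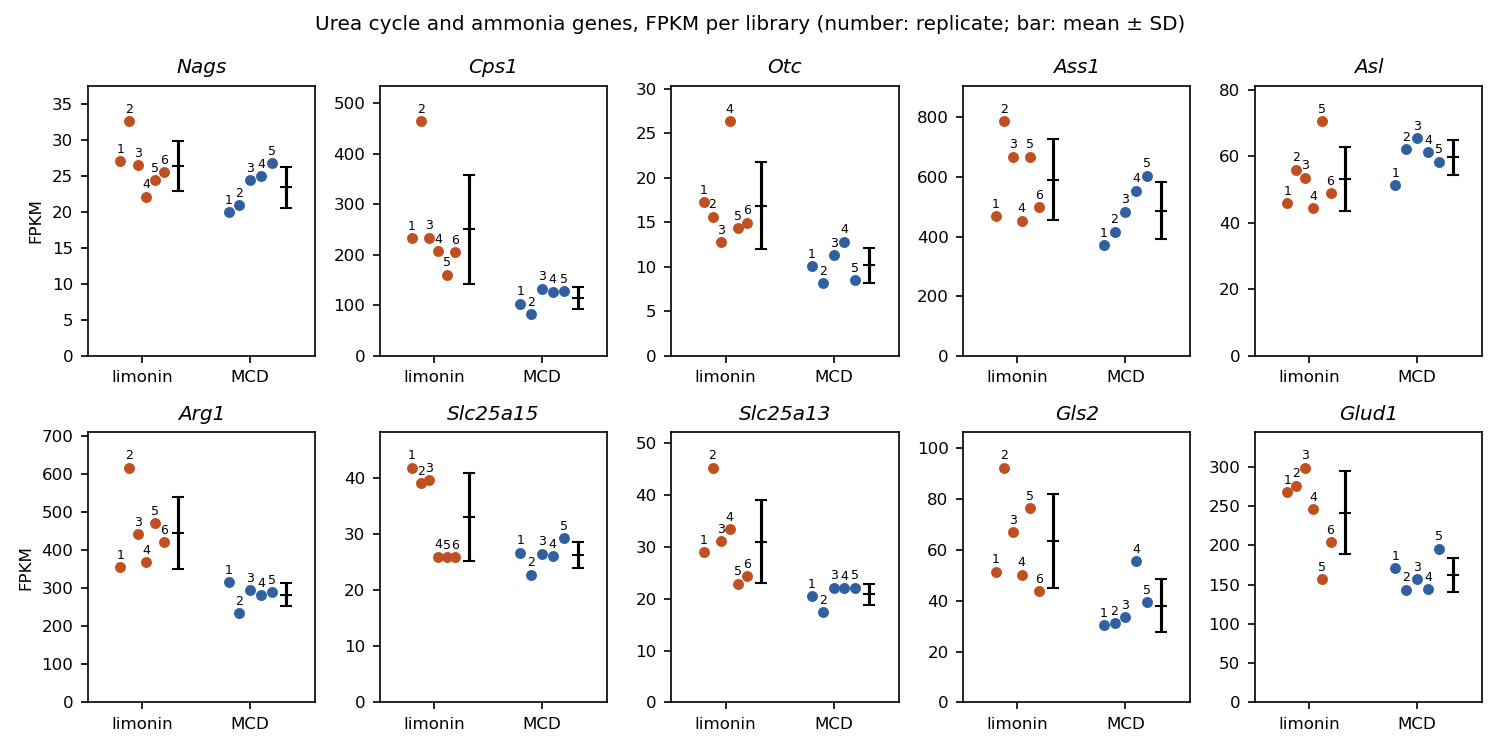
FPKM of the 10 genes in each library, with limonin livers in orange and MCD livers in blue, the replicate number above each point and bars for mean ± SD (n = 6 limonin, n = 5 MCD). The limonin points lie wholly above the MCD points for Cps1, Arg1 and Slc25a13, and limonin 2 is the highest limonin point in 6 of the 10 panels.

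Promoter sequences were available here from RefSeq (GRCm38.p6) for 6 of the 10 genes, and the 4 windows upstream of the outermost annotated start that held no annotated exon are shown. They show how unlike the upstream sequence is between genes of 1 pathway: Otc and Slc25a13, called higher, and Ass1 and Nags, not called. All are written 5′ to 3′ on the strand of the gene, and capitals mark GGGCGG, the GC box bound by the Sp1 family, on either strand. Otc is chrX:10252055-10252229 on the plus strand and Slc25a13 is chr6:6217305-6217423 on the minus strand. Ass1 is chr2:31470020-31470206 and Nags is chr11:102145263-102145512, both on the plus strand.
Otc: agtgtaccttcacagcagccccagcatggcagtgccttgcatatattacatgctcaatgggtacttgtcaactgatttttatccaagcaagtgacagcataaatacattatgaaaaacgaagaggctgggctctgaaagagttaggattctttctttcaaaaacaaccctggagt
Slc25a13: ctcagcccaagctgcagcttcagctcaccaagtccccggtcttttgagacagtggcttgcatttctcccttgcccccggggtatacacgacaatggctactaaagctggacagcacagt
Ass1: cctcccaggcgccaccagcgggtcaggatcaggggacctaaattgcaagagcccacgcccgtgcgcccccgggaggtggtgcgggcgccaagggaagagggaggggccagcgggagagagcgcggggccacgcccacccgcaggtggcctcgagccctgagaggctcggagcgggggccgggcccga
Nags: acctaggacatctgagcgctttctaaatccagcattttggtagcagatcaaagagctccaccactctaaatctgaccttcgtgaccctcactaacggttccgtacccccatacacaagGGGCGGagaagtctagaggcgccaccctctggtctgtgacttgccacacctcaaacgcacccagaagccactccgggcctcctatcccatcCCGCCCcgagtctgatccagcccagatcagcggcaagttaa
The GC content was 41.7% for Otc, 55.5% for Slc25a13, 75.4% for Ass1 and 55.6% for Nags. The median over 250-base windows of all promoters was 52.4%. That length is matched by Nags alone, as the windows of Otc, Slc25a13 and Ass1 have 175, 119 and 187 bases. The Nags window held GGGCGG at 2 places, and 32.7% of all promoters hold it at least once in a window of that length. No GGGCGG was found in the other 3 windows, and the share of all promoters with it was 20.2% at the length of the Otc window, 22.2% at that of Ass1 and 12.7% at that of Slc25a13. AAAGTCCA, part of the site of HNF4A, and TTGCNNAA, the core of the C/EBP site, were also searched on both strands and were in none of the 4. Their shares over all promoters at these lengths were 0.429% to 1.01% for AAAGTCCA and 4.95% to 9.56% for TTGCNNAA. For lengths under 250 bases, all these shares were counted in the upstream bases of each promoter that lie farthest from its start. The bases nearest the start were left out, so they are not shares of windows that end at a start.

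The entry into the cycle is made by Nags, Cps1 and Otc. Cps1 (chr1:67123026-67231259, GRCm38) encodes carbamoyl phosphate synthetase, the mitochondrial enzyme that fixes ammonia and the rate-limiting step of the cycle. Its level ran from 161 FPKM through a median of 219.9 to 464 FPKM in limonin livers, against 103, 82.6, 133, 127 and 129 FPKM in MCD livers 1 to 5. The highest limonin value, in limonin 2, lay well above the other 5, which ended at 234 FPKM, and the groups did not overlap. Cps1 averaged 251 ± 108 FPKM in limonin livers (SD, n = 6) and 115 ± 21.5 FPKM in MCD livers (SD, n = 5), and its log2 fold change of 1.05 ± 0.23 (SE; 95% interval 0.57 to 1.54) had an adjusted p of 0.00654. This was the largest log2 fold change among the 10 genes. In the 11 fits that each left out 1 library, its log2 fold change was between 0.86 and 1.16 and it was called in each; the lowest value came without limonin 2.

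Nags (chr11:102145513-102149477) encodes N-acetylglutamate synthase, which makes the cofactor that Cps1 needs to be active. It ranged from 22.2 through a median of 26.0 to 32.7 FPKM in limonin livers, against 20.01, 20.9, 24.4, 25.0 and 26.8 FPKM in MCD livers 1 to 5. The groups overlapped, and limonin 1 and 2 were above the highest MCD value. The log2 fold change of 0.16 ± 0.11 (95% interval -0.07 to 0.40) was not called (adjusted p = 0.284), and centred on hepatocyte markers it was -0.10 (adjusted p = 0.4995). An antisense gene, Gm11586, overlaps Nags by 698 bases and averaged 0.19 FPKM over all libraries.

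Otc (chrX:10252305-10321024) encodes ornithine transcarbamylase, which joins carbamoyl phosphate to ornithine to make citrulline, and it had the lowest mean of the 10 genes in both groups. Its level was 12.8 to 26.3 FPKM in limonin livers with a median of 15.3 FPKM, against 10.04, 8.14, 11.3, 12.8 and 8.51 FPKM in MCD livers 1 to 5. Limonin 4 was far above the other limonin livers, and 5 of 6 limonin libraries lay above every MCD library, the sixth, limonin 3, falling just under MCD 4. Otc averaged 16.9 ± 4.86 FPKM in limonin livers and 10.2 ± 1.95 FPKM in MCD livers, with a log2 fold change of 0.66 ± 0.16 (95% interval 0.31 to 1.01) and an adjusted p of 0.0119. The call was lost when centred on hepatocyte markers, where the value was 0.39 (adjusted p = 0.0552). It was also lost without limonin 2 and MCD 2 together (adjusted p = 0.0660).

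The cytosolic steps are those of Ass1, Asl and Arg1, of which Arg1 was called higher and the others were not called. Arg1 (chr10:24915221-24927484) encodes arginase 1, which releases urea from arginine. It ranged from 357 through a median of 431 to 617 FPKM in limonin livers, against 317, 234, 296, 282 and 290.1 FPKM in MCD livers 1 to 5. Every limonin value was above every MCD value, with limonin 2 highest and MCD 2 lowest. Arg1 averaged 446 ± 94.5 FPKM in limonin livers and 284 ± 30.5 FPKM in MCD livers, and its log2 fold change of 0.63 ± 0.14 (95% interval 0.33 to 0.93) had an adjusted p of 0.00686. It was the only one of the 10 genes called in each of 27 alternatives, where its adjusted p reached 0.0463. Its paralog Arg2, the mitochondrial arginase of other tissues, was under the filter, at 0.253 ± 0.105 FPKM in limonin livers and 0.354 ± 0.120 FPKM in MCD livers.

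Ass1 (chr2:31470207-31520672) encodes argininosuccinate synthase, which joins citrulline to aspartate, and it had the highest mean of the 10 genes in both groups. Its level was 453 to 787 FPKM in limonin livers with a median of 583 FPKM, against 372, 417, 484, 554 and 605 FPKM in MCD livers 1 to 5. The groups overlapped broadly. Its log2 fold change of 0.27 ± 0.17 (95% interval -0.09 to 0.64) was not called (adjusted p = 0.255), nor was it in any alternative.

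Asl (chr5:130011258-130029247) encodes argininosuccinate lyase, which releases arginine and fumarate, and it was the only one of the 10 genes with a lower mean in limonin livers. It ran from 44.5 through a median of 51.2 to 70.5 FPKM in limonin livers, against 51.4, 62.2, 65.5, 61.2 and 58.4 FPKM in MCD livers 1 to 5. Limonin 5 was the highest of all 11 libraries, and the groups overlapped. Asl averaged 53.2 ± 9.55 FPKM in limonin livers and 59.7 ± 5.32 FPKM in MCD livers, a log2 fold change of -0.18 ± 0.12 (95% interval -0.43 to 0.08) that was not called (adjusted p = 0.292). When centred on hepatocyte markers it was called lower, at -0.44 (adjusted p = 0.00873).

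Both mitochondrial carriers had higher means in limonin livers, and 1 was called. Slc25a13 (chr6:6041218-6217173) encodes citrin, which exports aspartate to the cytosol in exchange for glutamate. Its level ran from 22.9 through a median of 30.0 to 45.3 FPKM in limonin livers, against 20.4, 17.4, 22.1, 22.0 and 22.1 FPKM in MCD livers 1 to 5. No limonin value fell within the MCD range, although limonin 5 lay less than 1 FPKM above it. The means were 31.0 ± 8.04 FPKM in limonin livers and 20.8 ± 2.04 FPKM in MCD livers, and the log2 fold change of 0.52 ± 0.15 (95% interval 0.21 to 0.84) had an adjusted p of 0.0212. It was not called without MCD 2 (adjusted p = 0.0678), with no filter on low genes (0.0683) or when centred on hepatocyte markers (0.182). Nor was Slc25a13 called without limonin 2 and MCD 2 together.

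Slc25a15 (chr8:22375551-22398597) encodes the carrier that exchanges ornithine for citrulline. It ranged from 25.9 through a median of 32.6 to 41.9 FPKM in limonin livers, against 26.7, 22.8, 26.5, 26.1 and 29.3 FPKM in MCD livers 1 to 5. The limonin libraries split: replicates 1, 2 and 3 lay above every MCD library, at 41.9, 39.1 and 39.6 FPKM, and replicates 4, 5 and 6 lay between 25.9 and 26.0 FPKM, within the MCD range. The log2 fold change of 0.29 ± 0.14 (95% interval -0.02 to 0.60) was not called (adjusted p = 0.149). It was called after median-ratio scaling (0.44, adjusted p = 0.0292) and without limonin 5 and 6 together (0.45, adjusted p = 0.0368), and the authors' deposited table gives it a q of 0.0171. The related carrier gene Slc25a2 was under the filter, at 0.234 ± 0.121 FPKM in limonin livers and 0.165 ± 0.158 FPKM in MCD livers.

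**Figure D2:**
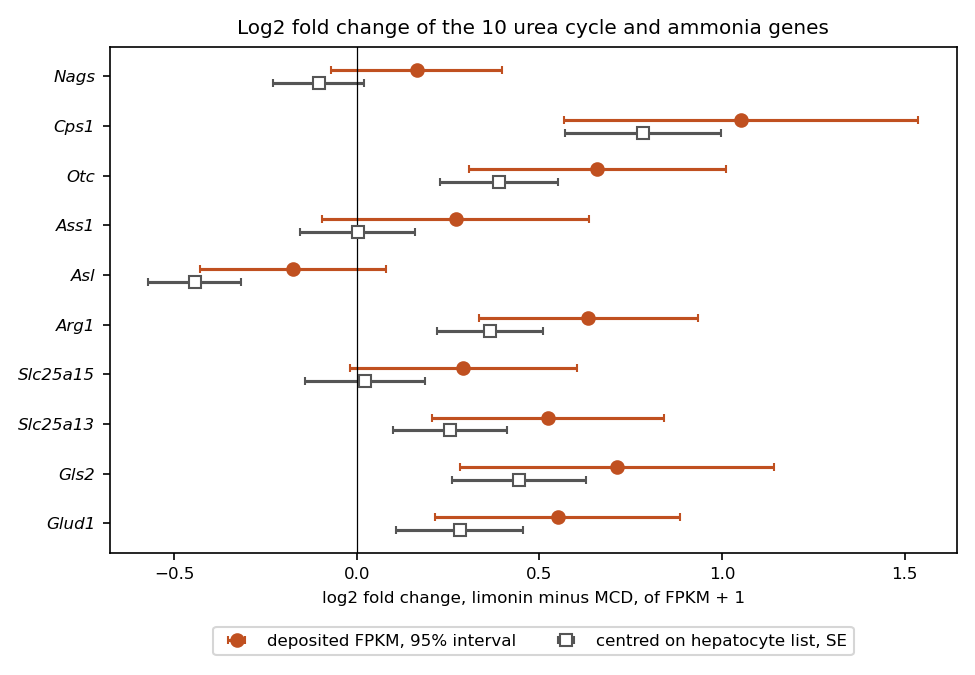
Log2 fold change of log2(FPKM + 1), limonin minus MCD, on the x axis for each of the 10 genes: filled circles are the deposited FPKM with their 95% interval, open squares the same after each library was centred on 18 hepatocyte markers, with SE. Filled circles run from -0.18 for Asl to 1.05 for Cps1, and centring shifts each gene by about 0.27 to the left.

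The genes that release ammonia inside the liver were both higher with limonin. Gls2 (chr10:128194457-128210004) encodes the liver glutaminase, which frees ammonia from glutamine in the mitochondria of periportal hepatocytes. Its level was 43.8 to 92.4 FPKM in limonin livers with a median of 59.2 FPKM, against 30.3, 31.3, 33.6, 55.7 and 39.5 FPKM in MCD livers 1 to 5. MCD 4 reached into the limonin range, and limonin 2, 3 and 5 lay above it. Gls2 averaged 63.6 ± 18.6 FPKM in limonin livers and 38.1 ± 10.5 FPKM in MCD livers, and the log2 fold change was 0.71 ± 0.20 (95% interval 0.28 to 1.14; adjusted p = 0.0214). The call was lost without MCD 1 (adjusted p = 0.0566), without MCD 2 (0.0653), with no filter (0.0683) and when centred on hepatocyte markers (0.0571). Leaving out limonin 2 and MCD 2 together also lost the Gls2 call. Spryd4, on the opposite strand, overlaps its end by 97 bases; it averaged 26.2 ± 4.14 FPKM in limonin livers and 20.3 ± 1.64 FPKM in MCD livers, a log2 fold change of 0.34 ± 0.11 (adjusted p = 0.0359). The sources used here do not give whether fragments were assigned by strand, so reads in the overlap cannot be told apart.

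Glud1 (chr14:34310727-34345265) encodes glutamate dehydrogenase, which releases ammonia from glutamate and can also run in reverse. It ran from 157 through a median of 257 to 299 FPKM in limonin livers, against 171, 143, 157, 144 and 196 FPKM in MCD livers 1 to 5. Limonin 5 lay within the MCD range and the other 5 limonin libraries lay above it. Glud1 averaged 242 ± 52.4 FPKM in limonin livers and 162 ± 21.9 FPKM in MCD livers, and the log2 fold change was 0.55 ± 0.16 (95% interval 0.21 to 0.89; adjusted p = 0.0216). It was not called without MCD 2 (adjusted p = 0.0659), with no filter (0.0676) or when centred on hepatocyte markers (0.189). The Glud1 call was also lost with replicate number as a block and without limonin 2 and MCD 2 together.

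The order of the levels was similar in both groups. In limonin livers it ran Ass1, Arg1, Cps1, Glud1, Gls2, Asl, Slc25a15, Slc25a13, Nags and Otc, and in MCD livers Ass1, Arg1, Glud1, Cps1, Asl, Gls2, Slc25a15, Nags, Slc25a13 and Otc. Cps1 exceeded Glud1 in 3 of 6 limonin libraries, whereas Glud1 exceeded Cps1 in 5 of 5 MCD libraries. Neighbours whose ranges did not overlap were Glud1 and Gls2, and Asl and Slc25a15, in limonin livers. In MCD livers the first 4 genes were each apart from the next, as were Gls2 and Slc25a15, and Slc25a13 and Otc. All other neighbours overlapped.

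The makeup of the pathway's RNA was read from shares and ratios within a library. Of the summed FPKM of the 10 genes, Cps1 made up 14.0% ± 3.18 in limonin livers and 9.34% ± 0.973 in MCD livers (SD, n = 6 and n = 5). The share of Ass1 was 33.6% ± 3.44 in limonin livers and 39.4% ± 3.92 in MCD livers, and that of Asl 3.09% ± 0.611 in limonin livers and 4.92% ± 0.705 in MCD livers. The ranges overlapped for all 3. The share of Nags was 1.35% to 1.76% in limonin livers and 1.78% to 2.02% in MCD livers, without overlap. The ranges of the remaining genes overlapped. The ratio of Cps1 to Asl within a library, which no scaling of whole libraries changes, ran from 2.28 to 8.30 in limonin livers, against 2.01, 1.33, 2.03, 2.08 and 2.21 in MCD livers 1 to 5. The groups did not overlap in this ratio, although limonin 5 stood close to MCD 5. The pair joins the genes with the highest and the lowest log2 fold change of the 10, and Cps1 alone already did not overlap. Separation of this ratio therefore follows in part from the choice of genes. Arg1 over Ass1 was 0.662 to 0.844 in limonin livers, against 0.851, 0.562, 0.611, 0.510 and 0.480 in MCD livers 1 to 5, where MCD 1 was the highest of all 11 libraries. These shares and ratios are given as values, with no test.

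**Figure D3:**
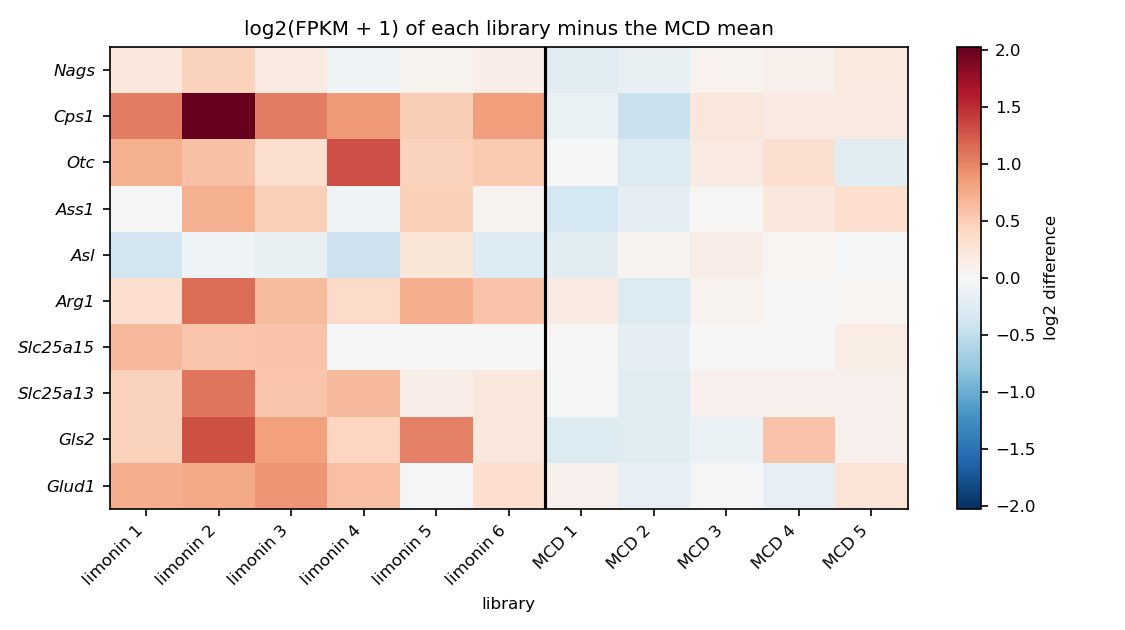
Log2(FPKM + 1) of each gene (rows) in each library (columns) minus the mean of the 5 MCD libraries, with red for higher and blue for lower values and a line between the limonin and the MCD libraries. Red fills most cells of the limonin columns for Cps1, Otc, Arg1, Slc25a13, Gls2 and Glud1, while the Asl row is blue in 5 of the 6 limonin columns.

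Single libraries stood out across the genes. Limonin 2 had the highest value of its group in 6 of the 10 genes and a summed level of 2425 FPKM, where the other limonin livers had 1478 to 1873 FPKM. In the MCD group, MCD 2 was lowest in 6 genes and MCD 1 in 4, with sums of 1039 and 1122 FPKM, where the other MCD livers had 1253 to 1404 FPKM. Each limonin sum was above each MCD sum.

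By the correlation of log2(FPKM + 1) after subtracting each group's mean, over 11 libraries, the 5 named genes most like Cps1 outside the set were Fgg (r = 0.971), Cyp3a13 (0.954), Fgb (0.954), Pzp (0.949) and Hacl1 (0.946). Fgg and Fgb encode fibrinogen chains, secreted by hepatocytes, and Pzp a plasma protease inhibitor. Cyp3a13 encodes a cytochrome P450 and Hacl1 a peroxisomal lyase of fatty acid alpha-oxidation. Within the set, r with Cps1 was 0.911 for Slc25a13, 0.827 for Nags, 0.659 for Arg1, 0.638 for Slc25a15, 0.585 for Glud1, 0.553 for Ass1 and 0.521 for Gls2. It was 0.10 for Otc and -0.06 for Asl. The libraries share depth and tissue makeup, and the high Cps1 value of limonin 2 weighs on which genes this measure picks. These values are a description.

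Among 34 other genes of ammonia and nitrogen metabolism, 26 were tested. Of these 4 were higher, 0 lower and 22 not called, where 7.24% of all genes tested were higher and 18.7% lower. The median log2 fold change of the list was 0.10. At an unadjusted p under 0.05, 8 were higher and 3 lower (Aldh18a1, Oat and Slc25a22, named after their values were seen), and the q-values in the authors' deposited table gave 8 higher and 0 lower among the 26 (8 and 2 among all 34, the genes under the filter included). Car5a, the mitochondrial carbonic anhydrase that supplies bicarbonate to Cps1, had 9.31, 21.6, 11.5, 12.9, 12.04 and 12.9 FPKM in limonin livers 1 to 6, against 4.14, 6.76, 7.74, 8.74 and 4.93 FPKM in MCD livers 1 to 5. The groups did not overlap, and limonin 2 was again the highest. Car5a averaged 13.4 ± 4.25 FPKM in limonin livers and 6.46 ± 1.91 FPKM in MCD livers, and its log2 fold change was 0.94 ± 0.20 (adjusted p = 0.00609); it was called in each of 27 alternatives. The others called were Slc38a4, an amino acid transporter, at 0.57 ± 0.16 (adjusted p = 0.0186), Got2, the mitochondrial aspartate aminotransferase, at 0.40 ± 0.12 (0.0237), and Aldh4a1, an enzyme of proline breakdown, at 0.39 ± 0.13 (0.0440). Without MCD 2, Car5a was the 1 gene of this list called higher, and without MCD 1 the count was 2. In fits without limonin 2, 3 or 5 or without MCD 1, 4 or 5, 1 gene of the list was called lower.

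Glul and Oat, the pericentral partners of these genes, were not called. Glul encodes glutamine synthetase, which captures ammonia as glutamine, and averaged 267 ± 54.1 FPKM in limonin livers and 247 ± 83.9 FPKM in MCD livers, a log2 fold change of 0.17 ± 0.26 (adjusted p = 0.657). MCD 1, at 109.6 FPKM, was far below the other MCD livers for Glul, which had 234 to 318 FPKM. Oat, ornithine aminotransferase, which links ornithine to glutamate, averaged 197 ± 60.2 FPKM in limonin livers and 281 ± 74.9 FPKM in MCD livers, a log2 fold change of -0.51 ± 0.20 that was not called (adjusted p = 0.0786). Oat was called lower in 4 of 27 alternatives: with hepatocyte centring, without limonin 5, without MCD 1, and without limonin 5 and 6 together.

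Of 15 genes of amino acid deamination, which feed ammonia and glutamate to the cycle, 10 were higher, 0 lower and 5 not called. The shares over all genes tested were 7.24% higher and 18.7% lower. The median log2 fold change of the list was 0.55. All 15 were tested, and at an unadjusted p under 0.05 the counts were also 10 higher and 0 lower. The histidine pathway was higher at 4 steps: Hal at 1.10 ± 0.17 (adjusted p = 0.00184), Uroc1 at 0.86 ± 0.14 (0.00218), Amdhd1 at 0.64 ± 0.14 (0.00555) and Ftcd at 0.55 ± 0.12 (0.00730). Hal, histidine ammonia-lyase, which releases ammonia directly, averaged 59.0 ± 15.3 FPKM in limonin livers and 26.9 ± 6.28 FPKM in MCD livers, with no overlap between the groups. Gldc, of the glycine cleavage system, was higher at 1.03 ± 0.19 (0.00340), the lysine-degrading Aass at 0.85 ± 0.16 (0.00340) and the tryptophan-degrading Tdo2 at 0.79 ± 0.18 (0.00888). When centred on hepatocyte markers, 6 of the 15 were called higher.

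Of 15 regulators known to act on urea cycle genes in liver, 13 were tested, 3 were higher, 1 was lower and 9 were not called. The shares over all genes tested were 7.24% higher and 18.7% lower, 25.9% in all. Klf15, a transcription factor of amino acid breakdown, averaged 39.5 ± 9.38 FPKM in limonin livers and 25.3 ± 6.89 FPKM in MCD livers, a log2 fold change of 0.64 ± 0.17 (adjusted p = 0.0183). Foxo1, a factor of the fasting response, was at 0.34 ± 0.10 (0.0276), and Hnf4a, a main transcription factor of hepatocytes, at 0.45 ± 0.14 (0.0344). Cebpb, a C/EBP factor also induced in inflammation, was lower at -0.41 ± 0.12 (0.0238). Without MCD 2 the counts were 1 higher and 0 lower, without MCD 4 they were 2 higher and 0 lower, and 1 was higher without MCD 1, MCD 5 or limonin 2. The call of Cebpb was also lost after median-ratio scaling and at equal summed FPKM.

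Some markers of cell types also differed between the groups. For the counts that follow, the shares over all genes tested were 7.24% higher and 18.7% lower, 25.9% in all. Of 18 hepatocyte markers 6 were higher, 0 lower and 12 not called, and their summed level was 50430 to 66710 FPKM in limonin livers and 44910 to 53080 FPKM in MCD livers. Alb alone averaged 25890 FPKM in limonin livers and 17790 FPKM in MCD livers, a large part of these sums. At an unadjusted p under 0.05, 8 hepatocyte markers were higher and 1 lower (Apoa1). Of 12 periportal markers 6 were higher and 0 lower, with sums of 982 to 1627 FPKM in limonin livers and 827 to 1033 FPKM in MCD livers. At an unadjusted p under 0.05 the periportal counts were 7 higher and 1 lower. The lower marker was Cdh1, at -0.84 ± 0.37 on the log2 scale (adjusted p = 0.119). Cyp2f2, a periportal cytochrome P450, was at 1.26 ± 0.14 on the log2 scale and Pigr, the immunoglobulin transporter, at 1.16 ± 0.19. Ctsc was at 0.64 ± 0.15, Hsd17b13 at 0.60 ± 0.17 and Etnppl at 0.47 ± 0.14; Hal, also on this list, is given above. Of 15 pericentral markers 14 were tested, 3 were higher (Cyp2c29 at 1.19 ± 0.21, Cyp2a5 at 0.54 ± 0.18 and Tbx3 at 0.49 ± 0.13) and 1 lower (Nkd1 at -0.46 ± 0.13), and without MCD 2 the counts were 2 higher and 0 lower. At an unadjusted p under 0.05, 3 pericentral markers were higher and 3 lower (Nkd1, Oat and Lect2). Every limonin library lay below every MCD library for Lect2, at -0.32 ± 0.12 (adjusted p = 0.0596). Without limonin 1, limonin 5 or MCD 1, 2 pericentral markers were called lower, and without limonin 3, 1 periportal marker was. For the hepatocyte list, 1 marker was called lower without limonin 4 and 2 were without limonin 5. The pericentral sums were 7018 to 10410 FPKM in limonin livers and 5622 to 7741 FPKM in MCD livers. Most of these sums was Cyp2e1, which averaged 5439 FPKM in limonin livers and 4521 FPKM in MCD livers and was not called (adjusted p = 0.157).

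Markers of other liver cells were mostly lower with limonin, where 18.7% of all genes tested were called lower and 7.24% higher. Of 12 stellate cell and fibroblast markers 10 were lower (7 to 10 in fits without 1 library), with sums of 58.6 to 85.3 FPKM in limonin livers and 94.8 to 184 FPKM in MCD livers. Of 11 tested macrophage markers 7 were lower, with sums of 199.9 to 344 FPKM in limonin livers and 353 to 1068 FPKM in MCD livers, and without MCD 2 the count was 2. All 4 tested of 8 listed cholangiocyte markers were lower, with sums of 20.9 to 78.6 FPKM in limonin livers and 66.8 to 392 FPKM in MCD livers. The 8 endothelial markers had a median log2 fold change of -0.10, with 1 higher and 1 lower, and without MCD 2, MCD 5 or limonin 2, 3, 4 or 6 both counts were 0. Without limonin 1 or MCD 1 no endothelial marker was higher, and without limonin 5 or MCD 3 none was lower. Of the blood cell lists, both tested lymphocyte markers of 9 listed were lower, with 1 or 2 in each fit without 1 library. For neutrophils 3 of 4 tested markers of 6 listed were lower, with 0 to 4 in these fits, 0 without MCD 2 and 1 without MCD 1 or MCD 5. The 5 MCD libraries alone could carry a low gene past the filter, so shares of tested genes in these lists may follow in part from the filter. The part of these shifts in the higher levels of urea cycle genes was not tested. The centring on hepatocyte markers given above cannot decide it, because some of these markers themselves differed between the groups. Of the 18 markers 6 were called higher, 0 lower and 12 not called. Among the 6 was Fgb, at 0.96 ± 0.24 on the log2 scale, which is also among the genes most like Cps1. Subtracting the mean of the markers thus also removes change that urea cycle genes share with them.

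Other organs that express part of the pathway were also looked for. Intestinal markers summed to 34.5 to 82.7 FPKM in limonin livers and 55.6 to 108 FPKM in MCD livers, with 0 of 4 tested called at the adjusted threshold, 1 lower at an unadjusted p under 0.05, and 1 called lower without limonin 1, limonin 5 or MCD 5. Pancreas markers summed to 4.24 to 14.6 FPKM in limonin livers and 6.07 to 13.4 FPKM in MCD livers, and the 3 kidney markers in the table to 1.66 to 2.53 FPKM in limonin livers and 2.25 to 2.72 FPKM in MCD livers, with the 1 tested marker of each not called. The kidney marker was called lower without limonin 1. The 6 genes of a spermatid list, which liver cells do not normally express, were all called higher, with sums of 13.2 to 102 FPKM in limonin livers and 0 to 21.8 FPKM in MCD livers. The count was 6 without limonin 1, 5 without limonin 2 or MCD 3, 1 without limonin 3, 5 or 6 or MCD 1, and 0 without limonin 4 or MCD 2, 4 or 5, where the genes either failed the filter or were not called. It was 2 with a filter at 5 FPKM or a pseudocount of 0.1, 1 with hepatocyte centring, and 0 with no filter, a pseudocount of 0.01, replicate number as a block or the authors' deposited q-values, and also 0 without limonin 5 and 6 or MCD 4 and 5 together. The cause of the spermatid transcripts and their part in any other result were not tested.

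**Figure D4:**
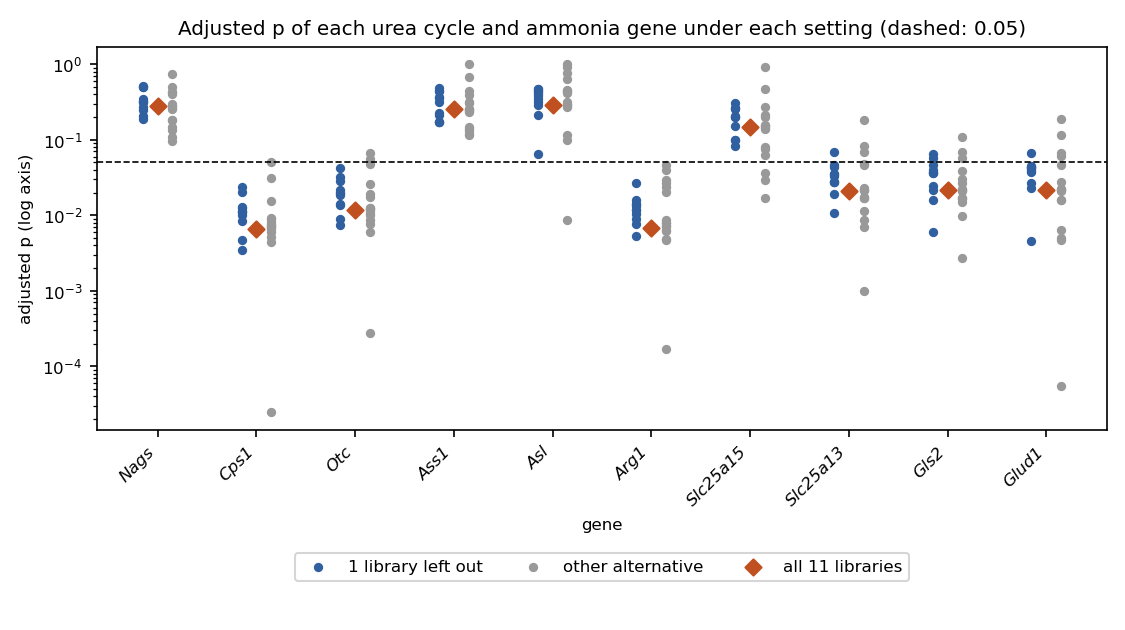
Adjusted p of each gene (x axis) on a log axis (y axis): red diamonds use all 11 libraries, blue points leave out 1 library each and grey points are the other alternatives, with a dashed line at 0.05. Every Arg1 point lies under the line, 1 grey point of Cps1 lies just above it, at 0.0514, and the points of Slc25a13, Gls2 and Glud1 fall on both sides.

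Over all genes tested, 759 were higher and 1957 lower with limonin, so that 27.9% of calls were higher. This share was 57.4% after median-ratio scaling, 51.4% after quantile normalization, 49.6% at equal summed FPKM, 47.4% with a trend on gene length removed and 2.68% when centred on hepatocyte markers. Without MCD 2 the counts were 318 higher and 996 lower, and without MCD 1 they were 465 higher and 1294 lower. Between 9742 and 10569 genes reached 1 FPKM in limonin libraries and between 10327 and 11087 in MCD libraries. Summed over the whole table, FPKM came to 404050 to 462665 in limonin libraries and 464184 to 471623 in MCD libraries. Every limonin library thus had a lower sum than every MCD library, a difference that the scaling to equal summed FPKM removes. The design text and titles name replicate mice, so libraries were read as 1 mouse each, and p-values measure the spread between these libraries.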

How the data were processed

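Libraries were built from poly(A) RNA of liver by a dUTP procedure that marks the strand, per the labels' protocols. The submitters' processing notes name StringTie 1.3.4d, HISAT2 2.0.4 and cutadapt 1.9. The build named there is the human one, although the deposited gene identifiers are those of mouse. Per the file headers, the deposited values are FPKM for each library. Further columns are, per the file headers, the authors' fold change (a ratio), the same on a log2 scale, a p-value, a q-value and a mark of significance. The sources used here do not name the test behind them. Counts were not used here, so the number of fragments behind a value and its counting error are unknown.

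From these values, log2(FPKM + 1) was computed for 10489 of 31280 genes, those reaching 1 FPKM in 5 or more libraries. On this scale the fold change of a low gene is understated. The 6 limonin and 5 MCD libraries were compared by the two-sided moderated test of limma 3.58.1 (R 4.3.3; options trend and robust). P-values were adjusted by Benjamini-Hochberg over the 10489 genes. The procedure was tested on simulated data. The planned design named a count test in case the table held counts; it holds FPKM, so the FPKM test was used. Gene positions are from GENCODE M21 (GRCm38) and promoter sequences from RefSeq.

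The members, lists, tests and alternatives were chosen with earlier results of these data known. All 10 members are named. Of each other list every gene called was named, up to 8 by smallest p, with Glul, Arg2, Slc25a2, Oat and Car5a always named; of the cell type lists, the periportal and pericentral genes called are named and the rest counted. The genes most like Cps1 were the 5 with the highest correlation and a mean of at least 1 FPKM, predicted genes left out. Some genes that this rule names are not reported here. Other genes were named after their values were seen. Alternatives were other filters (none, 5 FPKM), pseudocounts (0.1, 0.01), scalings, centring on hepatocyte markers, removal of a trend on gene length, no trend, library weights, a block for replicate number, each library left out, limonin 5 and 6 or MCD 4 and 5 left out together, and the authors' deposited q-values. Leaving out limonin 2 and MCD 2 together was added after seeing the data.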

Additional observations from a re-analysis of the deposited data

Results flagged for a closer look

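In a group of 4 to 10 libraries, a highest or lowest value was picked out where its gap to the nearest other library, divided by the range of the group, passed Dixon's 95% limit. Of 90 groups examined, 12 held such a value, of which 9 were in limonin 2. Chance picks out about 1 in 20 groups, but these groups share libraries and some genes were chosen for following Cps1, so the count of 12 cannot be set against that rate. Among the urea cycle genes, Cps1 at 464 FPKM in limonin 2 stood apart from the other limonin livers, which had 161 to 234 FPKM. Otc at 26.3 FPKM in limonin 4 stood apart from the other limonin livers, at 12.8 to 17.2 FPKM.

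Limonin 2 was also the high value for Car5a (21.6 FPKM, where the other limonin livers had 9.31 to 12.9 FPKM), Uroc1 (87.8 FPKM, the others 47.2 to 57.9 FPKM), Aass (39.4 FPKM, the others 19.2 to 26.2 FPKM) and Klf15 (57.6 FPKM, the others 32.8 to 41.6 FPKM). Of the genes chosen for following Cps1, a choice that itself favours a high limonin 2, those picked out were Fgg at 2110 FPKM, Fgb at 1320 FPKM, Pzp at 509 FPKM and Cyp3a13 at 50.8 FPKM, all in that library. In the MCD group, Aass was high in MCD 4, at 16.1 FPKM where the other MCD livers had 11.8 to 12.6 FPKM. Etnppl was low in MCD 2, at 2.60 FPKM where the other MCD livers had 4.70 to 5.00 FPKM.

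Without limonin 2 the log2 fold change of Cps1 was 0.86, and 6 of the 10 urea cycle and ammonia genes were called higher.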

How the results depend on the processing

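Of the 6 genes called higher, Arg1 was called in each of 27 alternatives and Cps1 in 26. Replicate numbers were not taken to pair the libraries: deviations of same-numbered libraries correlated at 0.076, -0.235, -0.169, 0.204 and -0.172 for numbers 1 to 5, and only number 4 was its own best match. With replicate number fitted as a block, 4 of the 10 genes were higher; Cps1 had an adjusted p of 0.0514 and Glud1 of 0.0608. In that block fit 363 genes of the whole table were higher and 893 lower, 2 other ammonia genes were higher, and 1 regulator was higher and 0 lower.

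Genes of the set called higher numbered 3 with no filter and 2 with centring on hepatocyte markers, where 1 was lower and Nags turned to -0.10. They numbered 2 (Cps1 and Arg1) without limonin 2 and MCD 2 together; these libraries were picked because they held the extreme values, so their removal narrows the difference by construction. With 1 library left out, 3 to 6 were higher and 0 were lower. Other ammonia genes called higher numbered 1 with no filter, 1 with hepatocyte centring, 9 with median-ratio scaling, 1 without limonin 2 and MCD 2 together, 8 by the authors' q-values and 1 to 5 with 1 library left out. Those called lower numbered 7 with hepatocyte centring, 1 without limonin 5 and 6, 2 by the authors' q-values (0 among the 26 tested genes) and 0 to 1 with 1 library left out. Deamination genes called higher numbered 6 with hepatocyte centring and 8 to 10 with 1 library left out.

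Regulators called higher numbered 0 with no filter, 6 with median-ratio scaling, 0 with hepatocyte centring, 5 with the length trend removed, 1 without MCD 4 and 5, 0 without limonin 2 and MCD 2, 7 by the authors' q-values (6 among the 13 tested genes) and 1 to 4 with 1 library left out. Those called lower numbered 3 with hepatocyte centring, 0 to 1 with 1 library left out, and 0 with no filter, median-ratio scaling, equal summed FPKM, the length trend removed, MCD 4 and 5 left out, limonin 2 and MCD 2 left out, and the authors' q-values.

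Over the whole table, genes called higher numbered 412 with no filter, 1829 with median-ratio scaling, 1737 with quantile normalization, 126 with hepatocyte centring, 1509 with the length trend removed, 1332 without limonin 5 and 6, 449 without MCD 4 and 5, 191 without limonin 2 and MCD 2, 2682 by the authors' q-values and 318 to 1087 with 1 library left out. Those called lower numbered 900 with a filter at 5 FPKM, 1112 at equal summed FPKM, 4573 with hepatocyte centring, 1285 without MCD 4 and 5, 668 without limonin 2 and MCD 2 and 996 to 2118 with 1 library left out. Some of these alternatives also use fewer libraries or test more genes, and the cause of the shifts was not tested.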

Other observations

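Glutamine release and glutamine synthesis run at opposite ends of the liver lobule, and the ratio of Gls2 to Glul within a library is unaffected by the scaling of whole libraries. It was 0.180, 0.364, 0.402, 0.166, 0.240 and 0.161 in limonin livers 1 to 6, against 0.277, 0.102, 0.125, 0.175 and 0.169 in MCD livers 1 to 5. MCD 1, whose Glul level was the lowest of its group, had a ratio above 4 of the 6 limonin livers. MCD 4 and MCD 5 also lay within the limonin range, so the groups overlapped. The ratio of Cps1 to Glul was 0.815, 1.83, 1.40, 0.685, 0.504 and 0.754 in limonin livers 1 to 6, against 0.944, 0.269, 0.494, 0.401 and 0.551 in MCD livers 1 to 5. Here too MCD 1 lay within the limonin range, as did MCD 5. These ratios were not tested.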
